A study of Sus scrofa with 6 samples.

Results

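The genes described here are TF (transferrin), TFRC (transferrin receptor), FTH1 and FTL (ferritin heavy and light chain) and HMOX1 (heme oxygenase), 5 symbols for the uptake, storage and release of iron. Measured were all probe sets whose annotated symbol was exactly one of these, which gave 7 of 23999 probe sets, or 6 of the 6774 genes with a named probe set. The values are log2 signals of RNA from IPEC-1 cells, a non-transformed epithelial line isolated from the small intestine of newborn piglets, hybridized to 6 Affymetrix porcine arrays. The cells were grown either at the air–liquid interface (ALI, n = 3), with only a thin film of liquid on the apical side, or as submerged culture (SMC, n = 3) under a column of medium. Both were grown on permeable membranes in the same medium, which contained insulin, transferrin and selenium, and both were kept without serum at the end of cultivation. Passages P109, P111 and P113 each supplied 1 ALI and 1 SMC array, so the 3 arrays of a group are 3 passages of 1 cell line.

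Iron circulates bound to transferrin, and cells take up the loaded protein through the transferrin receptor. Iron that is not used is stored inside ferritin, a shell of heavy chains, which oxidize iron, and light chains, which help to form the mineral core. Heme oxygenase opens the heme ring and releases its iron. Iron regulatory proteins, which bind RNA, hold back ferritin translation and stabilize TFRC mRNA when iron is scarce, so that ferritin protein cannot be read off from its mRNA. Transferrin is made mainly by hepatocytes, while enterocytes pass dietary iron to it.

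The symbol TF stood for 2 neighboring genes of the pig. One probe set belonged to gene ID 396996, and the other to gene ID 396845, for which the RefSeq gene table gives the synonym PICA. That abbreviation is used for the porcine inhibitor of carbonic anhydrase, a relative of transferrin. Both genes lie on chromosome 13 with 0 other protein-coding genes between them. In the following, TF is the first gene and PICA is the second, so that the 7 probe sets measured 6 genes. Whether the probes of one gene also bind RNA of the other was not tested.

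TF was higher in ALI cells. Its log2 value was 6.67, 6.99 and 7.55 in ALI cells of passages P109, P111 and P113, against 5.78, 5.13 and 6.0 in SMC cells of the same passages. All 3 ALI values lay above all 3 SMC values. The means were 7.07 ± 0.447 in ALI and 5.64 ± 0.453 in SMC cells (SD, n = 3 each), a 2.70-fold difference, or 1.43 on the log2 scale (standard error 0.27, 95% interval 0.81 to 2.06, adjusted p = 0.0412 from limma). With the passage as a block, the adjusted p was 0.00397 and the interval 1.03 to 1.84. As the RNA came from whole cultures, more cells with TF and more TF RNA per cell cannot be told apart. The SMC values of TF were at or above those of 33.6 to 45.1% of the probe sets on the same array, and the ALI values at or above those of 54.1 to 64.8%.

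PICA showed the same order of groups. Its log2 value was 5.80, 5.86 and 7.48 in ALI cells and 4.26, 4.86 and 4.92 in SMC cells of passages P109, P111 and P113. The groups did not overlap, and the ALI array of passage P113 stood apart from the other 2. The means were 6.38 ± 0.951 in ALI and 4.68 ± 0.367 in SMC cells (SD, n = 3 each), and the log2 fold change was 1.70 (standard error 0.42). This difference did not pass limma's test without the block (adjusted p = 0.0991), and it passed with the block (adjusted p = 0.00813, 95% interval 1.13 to 2.27). The SMC value of passage P109 was in the lowest 25% of the values of its array (below 4.56), where a signal is not shown to be above background, so that the fold change is no exact size.

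**Figure D1:**
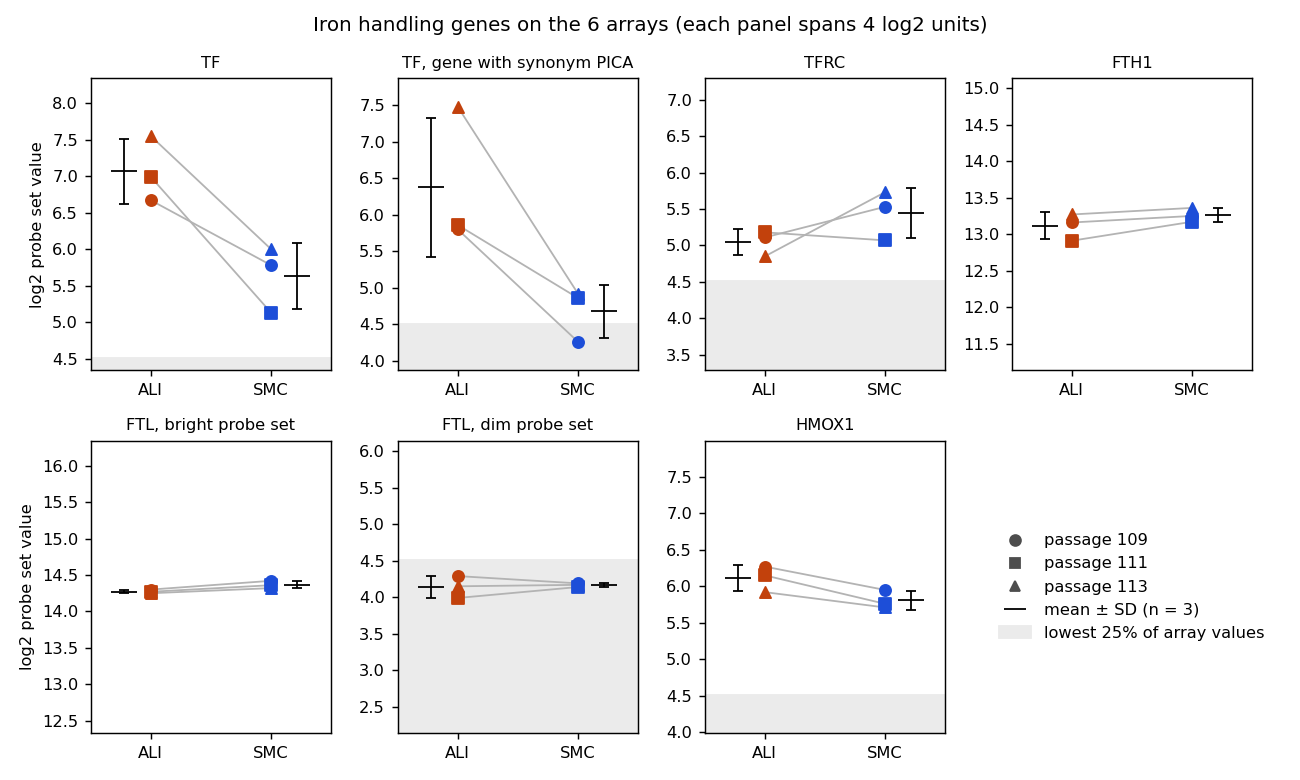
Log2 probe set values (y axis) of the 7 probe sets in ALI and SMC cells, with 1 point per array, lines joining arrays of the same passage, black marks for the mean ± SD (n = 3), and the lowest 25% of array values in grey. TF and PICA are higher in ALI cells at all 3 passages, while the ferritin values differ by at most 0.26 log2 units within a passage.

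The size of the difference varied between passages. ALI exceeded SMC cells in TF by 0.88 log2 units at passage P109, by 1.86 at passage P111 and by 1.55 at passage P113. In PICA, the differences were 1.54, 1.01 and 2.56. TF therefore had its smallest difference at passage P109 and PICA at passage P111. All 6 differences were at or above the 99.0th percentile of all probe sets at the same passage, whose middle 90% lay between -0.51 and 0.47, -0.57 and 0.54, and -0.53 and 0.47 at the 3 passages.

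**Figure D2:**
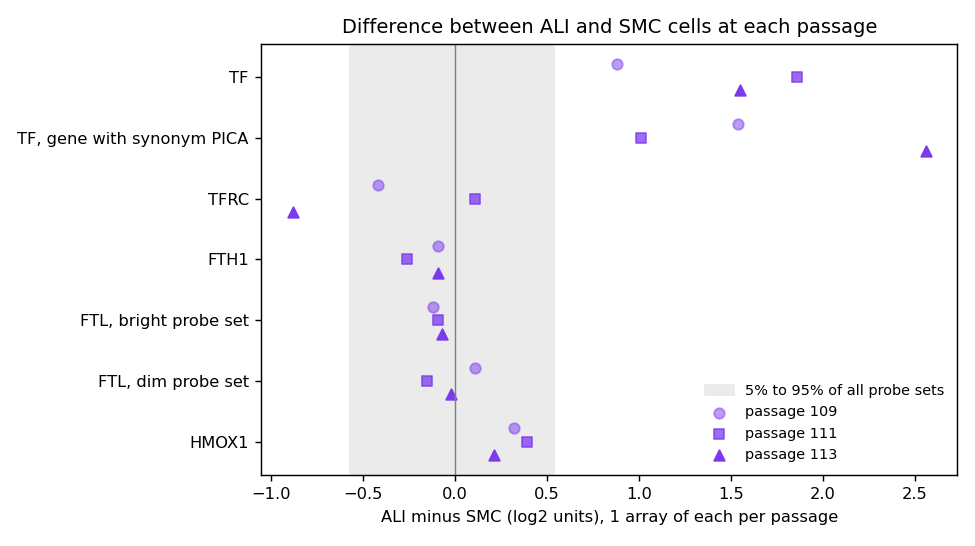
Difference between ALI and SMC cells in log2 units (x axis) for each probe set (y axis), with 1 symbol per passage and the widest of the 5% to 95% ranges of all probe sets in grey. TF and PICA lie to the right of the grey range at all 3 passages, between 0.88 and 2.56, and TFRC lies to its left at passage P113 (-0.88).

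The calls of TF and PICA depended on single arrays when the passage was not in the fit. The adjusted p of TF was 0.0788, 0.0909 and 0.0656 without ALI replicates 1, 2 and 3, and 0.0914 and 0.141 without SMC replicates 1 and 2. It stayed under 0.05 without SMC replicate 3 (0.0473). PICA passed without ALI replicate 3 (log2 fold change 1.15, adjusted p = 0.0420), the array with its highest value, and had an adjusted p of 0.105 to 0.277 without any other array. With the passage as a block, both genes passed after any 1 passage was left out, TF at an adjusted p of 3.16e-04 to 0.0216 and PICA at 0.00453 to 0.00951, a check that was added after the data had been seen.

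**Figure D3:**
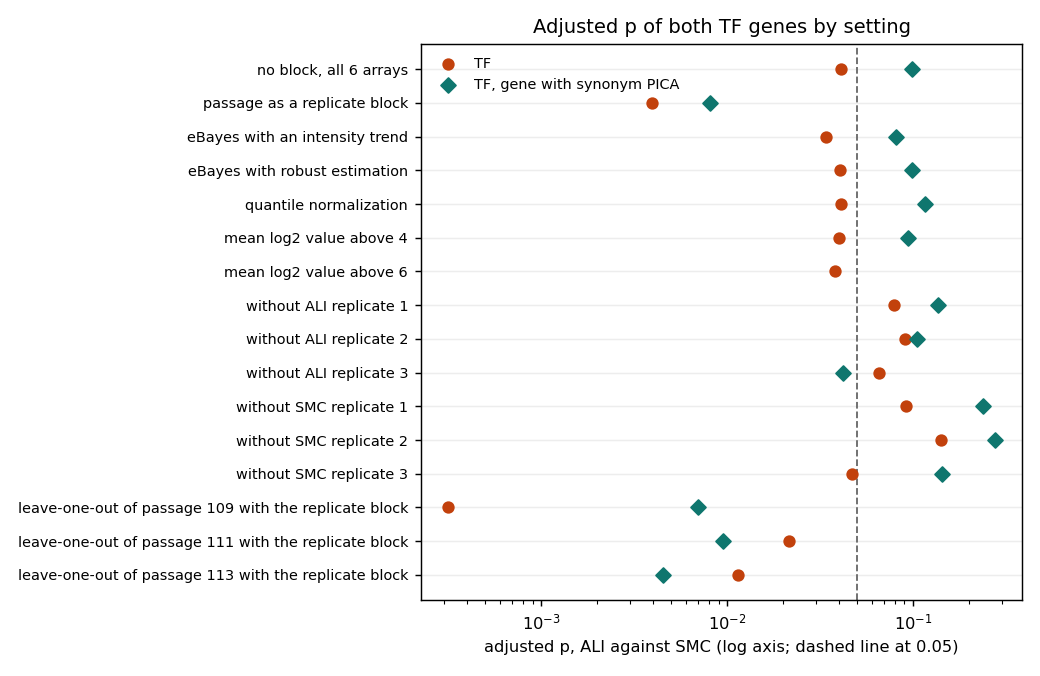
Adjusted p from limma (x axis, log scale, dashed line at 0.05) of TF (circles) and PICA (diamonds) under each setting (y axis). Both genes are under 0.05 in all 4 fits with the passage as a block, whereas without the block TF passes in 7 of 12 settings and PICA in 1 of 11.

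TFRC, which takes up iron-loaded transferrin, did not pass the test. Its log2 value was 5.11, 5.18 and 4.85 in ALI cells and 5.53, 5.07 and 5.73 in SMC cells of passages P109, P111 and P113. The groups overlapped, as the SMC value of passage P111 lay between the ALI values. ALI and SMC cells differed by -0.40 log2 units (standard error 0.18, 95% interval -0.81 to 0.01, adjusted p = 0.358 from limma, 0.258 with the block). ALI minus SMC was -0.42, 0.11 and -0.88 at the 3 passages, so that the sign was not the same in all of them. The interval includes a decrease by 0.81 log2 units as well as no difference. All 6 values were above the lowest 25% of their array, at or above those of 29.9 to 41.6% of its probe sets.

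FTH1, the ferritin chain that oxidizes iron, had log2 values of 13.16, 12.91 and 13.27 in ALI cells and 13.25, 13.17 and 13.36 in SMC cells. The groups overlapped, and the ALI value was the lower one at each passage, by 0.09, 0.26 and 0.09 log2 units. The log2 fold change was -0.15 (standard error 0.12, 95% interval -0.43 to 0.14, adjusted p = 0.656 from limma). FTL, the light chain, had 14.30, 14.27 and 14.25 in ALI cells and 14.42, 14.36 and 14.32 in SMC cells on the brighter of its 2 probe sets. All ALI values lay below all SMC values, but the difference was small, at -0.09 on the log2 scale (standard error 0.09, 95% interval -0.31 to 0.12, adjusted p = 0.717). The array maxima were 14.71 to 14.87, so that the brighter FTL probe set was near the top of the scale on each array. The second FTL probe set had 4.29, 3.99 and 4.15 in ALI cells and 4.19, 4.14 and 4.17 in SMC cells, and all 6 values were in the lowest 25% of their array. Its log2 fold change of -0.02 (adjusted p = 0.954) is therefore not shown to measure FTL.

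HMOX1, which degrades heme, had log2 values of 6.27, 6.15 and 5.92 in ALI cells and 5.95, 5.76 and 5.71 in SMC cells of passages P109, P111 and P113. The groups overlapped only in that the ALI value of passage P113 was just below the SMC value of passage P109. Within each passage the ALI value was the higher one, by 0.32, 0.39 and 0.21 log2 units. The log2 fold change was 0.30 (standard error 0.13, 95% interval 0.01 to 0.60), with an unadjusted p of 0.0420 and an adjusted p of 0.324 from limma (0.154 with the block), so that it did not pass over all probe sets. The suffix of the HMOX1 probe set marks probes that can match more than 1 transcript.

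Of the 7 probe sets, 1 was called higher (TF) and 0 were called lower in ALI cells by limma without the block, where 0.663% of all probe sets were called higher and 1.23% lower. With the block, 2 were called higher (TF and PICA) and 0 lower, where the shares over all probe sets were 2.0% and 3.32%. At an unadjusted p under 0.05 without the block, 3 were higher and 0 were lower, where 6.77% of all probe sets were higher and 7.57% lower. The methods' t-test at this threshold had 2 higher and 1 lower (the brighter FTL probe set), where it had 6.12% and 5.93% of all probe sets. The groups did not overlap for 2 probe sets that were higher and 1 that was lower, where 10.3% and 9.27% of all probe sets showed such a separation. The median log2 fold change of the 7 probe sets was -0.02, and that of all probe sets was 0.02.

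Few other genes of iron and heme handling were called. Of 81 symbols listed for these roles and their regulators, 41 were measured by a probe set that named no other gene, and TF stood for 2 genes. Of 42 measured genes in the lists of iron uptake, storage, export, sensing, iron–sulfur clusters, heme synthesis and heme breakdown, 2 were called higher (TF and POR) and 0 lower by limma. This was 4.76% of them, where 2.52% of all named genes were called in either direction. With the block, 4 were called higher (TF, PICA, UROD and POR) and 0 lower, or 9.52%, where 6.01% of all named genes were called. The 42 include the 6 members, so beside these only POR was called without the block, and only UROD and POR with it. At an unadjusted p under 0.05, 8 of the 42 were higher and 1 was lower, where 7.10% of all named genes were higher and 8.90% lower. The members TF, PICA and HMOX1 were among the 8. The median log2 fold change of the 42 genes was 0.03, against 0.01 for all named genes, and 25 were above and 17 below 0.

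POR, the reductase that supplies electrons to heme oxygenase and to cytochromes P450, had log2 values of 8.09, 8.06 and 8.27 in ALI cells and 7.52, 7.70 and 7.48 in SMC cells. The groups did not overlap, and the log2 fold change was 0.57 (standard error 0.11, adjusted p = 0.0467 from limma, 0.0318 with the block). The call was lost without any 1 array (log2 fold change 0.51 to 0.64, adjusted p = 0.0871 to 0.140) and with an intensity trend (0.57, adjusted p = 0.0665). With the block it was lost without any 1 passage (0.46 to 0.67, adjusted p = 0.0514 to 0.117). UROD, a decarboxylase of heme synthesis, had 8.82, 8.59 and 8.47 in ALI cells and 7.25, 8.04 and 7.77 in SMC cells, again without overlap. Its log2 fold change of 0.94 (standard error 0.20) did not pass without the block (adjusted p = 0.0629) and passed with it (0.0287). That blocked call was lost without passage P109 (log2 fold change 0.62, adjusted p = 0.0653), the passage with the widest distance between its UROD values.

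**Figure D4:**
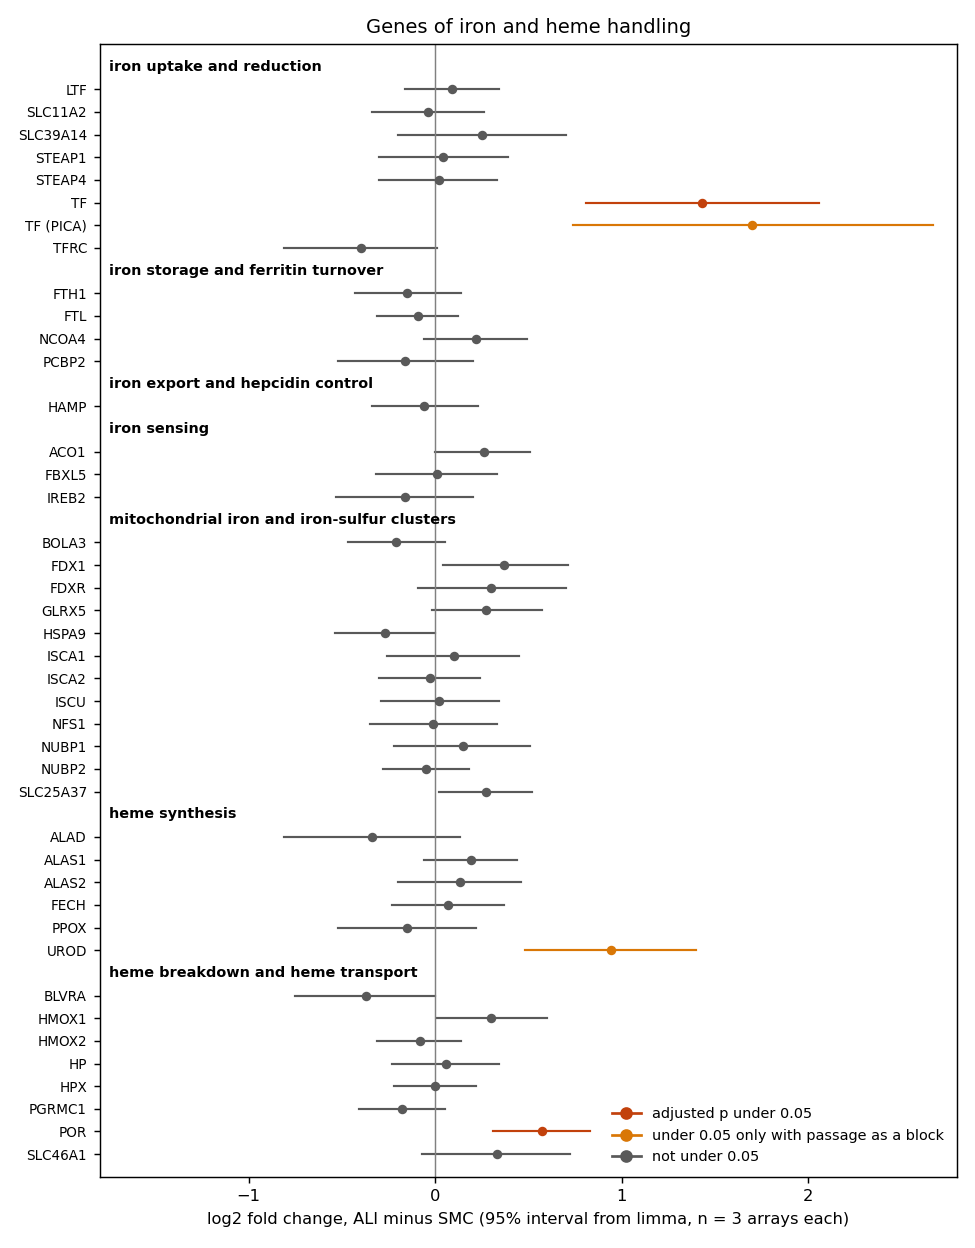
Log2 fold change of ALI against SMC cells with its 95% interval (x axis) for 42 genes of iron and heme handling (y axis), grouped by role. TF (1.43) and POR (0.57) pass limma's test, PICA (1.70) and UROD (0.94) pass only with the passage as a block, and the other 38 genes lie between -0.40 and 0.37.

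In the list of iron uptake, 8 genes were measured, of which 1 was called higher (TF) and 0 lower. Over all named genes, 2.52% were called, so that no call in a short list says little about it. SLC11A2, the importer of ferrous iron at the apical membrane, differed by -0.04 on the log2 scale (adjusted p = 0.936), and SLC39A14, a carrier of iron not bound to transferrin, had 0.25 (adjusted p = 0.623). STEAP1 and STEAP4, of the STEAP protein family, were in the lowest 25% of the values on all 6 arrays. None of the 4 storage genes was called, with 0 also at an unadjusted p under 0.05. Of them, NCOA4, the receptor that delivers ferritin to lysosomes, had log2 values of 10.98, 11.05 and 10.77 in ALI cells and 10.75, 10.82 and 10.57 in SMC cells, with a log2 fold change of 0.22 (adjusted p = 0.454). The only measured gene of iron export and its control was HAMP, which encodes hepcidin, with a log2 fold change of -0.06 (adjusted p = 0.885). The regulators NFE2L2, BACH1 and KEAP1 and the iron exporter SLC40A1 were not analysed here. Of the 6 listed regulators of HMOX1 and the ferritin genes, 0 were measured.

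Of the 3 genes of iron sensing, none was called, where 2.52% of all named genes were. ACO1, which encodes an iron regulatory protein, had log2 values of 12.03, 12.12 and 12.01 in ALI cells and 11.87, 11.89 and 11.63 in SMC cells on its brightest probe set, without overlap between groups. Its log2 fold change was 0.26 (adjusted p = 0.339), and 2 dimmer probe sets of ACO1 had -0.15 and -0.47, so that the direction differed between probe sets. IREB2, the second iron regulatory protein, had -0.16 (adjusted p = 0.705), and FBXL5, which marks IREB2 for degradation, had 0.01 (adjusted p = 0.991). None of the 12 genes of mitochondrial iron and iron–sulfur clusters was called. At an unadjusted p under 0.05, 2 of them were higher and 1 was lower, where 7.10% and 8.90% of all named genes were. The electron carrier FDX1 differed by 0.37 log2 units (adjusted p = 0.295), while the mitochondrial iron importer SLC25A37 had 0.27 (adjusted p = 0.309). On their dimmer probe sets, FDX1 had 0.35 and SLC25A37 had 0.04. The lower gene was HSPA9, with -0.27 on its brightest probe set (adjusted p = 0.344) and -0.17 and -0.56 on its dimmer ones. In heme synthesis, ALAS1, the enzyme of the first step, had 0.19 (adjusted p = 0.485) on its brightest probe set, and its 2 dimmer ones had -0.12 and -0.51.

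Markers of other cell types were read on the same arrays, since TF is a product of hepatocytes and the free-text sample description names liver. Of 14 measured plasma proteins of hepatocytes, none was called by limma, and their median log2 fold change was -0.01. Over all named genes, 2.52% were called, to be set beside this and the following marker lists. APOA2, APOB, FGB, FGG and VTN were in the lowest 25% on all 6 arrays, while ALB, APOA1, SERPINA1, RBP4 and AHSG were above the median on all 6. Albumin (ALB) had log2 values of 8.26, 8.54 and 8.03 in ALI and 8.87, 8.25 and 8.62 in SMC cells. RBP4, the carrier of retinol, was the only gene of the list with an unadjusted p under 0.05, with means of 8.74 in ALI and 9.03 in SMC cells (adjusted p = 0.208). The mean log2 value over the 14 genes was 5.49 to 5.81 in ALI and 5.53 to 6.0 in SMC cells. Of 10 markers of intestinal epithelium, none was called. VIL1, which encodes villin of the microvilli, had log2 values of 6.30, 6.37 and 5.69 in ALI and 6.75, 6.43 and 6.51 in SMC cells without overlap, and it was the only one with an unadjusted p under 0.05 (log2 fold change -0.45, adjusted p = 0.332). For these 10 genes, the mean over the list was 8.64 to 8.78 in ALI and 8.67 to 8.86 in SMC cells. The epithelial genes EPCAM, KRT8 and CDH1 were at or above at least 99.1% of the probe sets of each array, whereas the enterocyte genes FABP1, FABP2 and CDH17 were in the lowest 25% on all arrays. Of 7 markers of macrophages and leukocytes, AIF1 was lower, with 10.61, 10.53 and 10.38 in ALI and 11.16, 11.18 and 11.09 in SMC cells (log2 fold change -0.64, adjusted p = 0.0248), while PTPRC was in the lowest 25% on all arrays. The mean over these 7 genes was 5.36 to 5.50 in ALI and 5.47 to 5.54 in SMC cells. The part of any of these markers in the TF and PICA differences was not tested.

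Across the 6 arrays, the genes most like TF among 850 genes with a mean log2 value above 6 and an SD of at least 0.3 were SERPING1, which encodes the C1 inhibitor, MYLIP, a ubiquitin ligase, and RFTN1, a protein of lipid rafts, with Pearson's r of 0.990, 0.984 and 0.979. The 6 arrays share the difference between culture types, and after subtraction of the group means r was 0.982, 0.924 and 0.909. Here and below, the genes were picked for their r on these same 6 arrays. A high r after the subtraction is therefore no separate support for their likeness. For PICA, the most similar genes were TP53I3, an oxidoreductase, ELMO1, an engulfment and motility protein, and SESN1, a sestrin, with r of 0.992, 0.986 and 0.984 (0.978, 0.961 and 0.971 after this subtraction). TFRC was most similar to WSB1, WEE1 and CDC42BPA with r of 0.887, 0.876 and 0.872 (0.783, 0.757 and 0.777 after it). Without this subtraction, TF and PICA had an r of 0.879 with each other, while TFRC had -0.480 with TF and -0.752 with PICA. These values include the difference between culture types, and r within the groups was not computed for them. The ferritin genes and HMOX1 had an SD under 0.3 over the arrays, so that no similar genes were sought. The brighter FTL probe set, with an SD of 0.0624, had an r of -0.847 with TF and -0.891 with PICA. These values also include the difference between culture types, which for this probe set was -0.09 log2 units. They do not show a relation within the groups.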

How the data were processed

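The authors hybridized RNA of 3 ALI and 3 SMC cultures to GeneChip Porcine Genome Arrays, read them with GCOS (version 1.1.1 in the submitters' processing notes) and normalized them by GC-RMA. The deposited table holds log2 values of 24123 probe sets and does not name its normalization. It was used without detection calls or further scaling, after 124 control probe sets were left out. The remaining 23999 probe sets entered a limma 3.58.1 fit (R 4.3.3) whose single factor was the culture type, and p-values were adjusted over all of them by the Benjamini-Hochberg method. Calls needed an adjusted p under 0.05. Arrays have no depth, and their number is one limit on the precision.

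Symbols and gene IDs came from the platform annotation, and the RefSeq table for Sscrofa11.1 changed 0 symbols. Another 7 probe sets named a member together with a second gene and were not used as members. A gene with several probe sets was represented by the one with the highest mean. The fit without the block was tested on simulated data with 200 changed probe sets. It recovered 6 of them at a log2 change of 0.585, 185 at 1 and 200 at 2. At these changes, 1, 12 and 13 unchanged probe sets were called as well. The simulated noise was independent between arrays and had no passage effect. A gene that was not called can therefore still differ by a small amount, or by more where its arrays vary widely. PICA, at a log2 fold change of 1.70 with a standard error of 0.42, was not called without the block.

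The labels give a shared passage to 1 ALI and 1 SMC array, and after subtraction of the group means such arrays correlated at 0.340, 0.140 and 0.451 over probe sets, so the arrays were also treated as paired by passage. Other pairs had -0.424 to 0.219, the highest for ALI replicate 2 with SMC replicate 1, above ALI replicate 2 with its own partner. Members and gene lists were chosen with earlier results of these data known. Named are all probe sets of the 5 symbols, the called genes of each iron list (or the 2 with the smallest p), and the 3 genes most correlated with each member with an SD of at least 0.3. Other genes were added for their role or their unadjusted p after their values had been seen. Alternatives were an intensity trend, robust estimation, quantile normalization, mean values above 4 or 6, the methods' t-test, averaging the probe sets of a gene and leaving out single arrays or passages. The t-test was run here with equal variances in both groups. As the methods name no variant, its calls need not be those of the authors.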

Additional observations from a re-analysis of the deposited data

How the results depend on the processing

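The direction of TF, PICA, TFRC, FTH1, HMOX1 and the brighter FTL probe set was the same in each alternative that was run, and that of the second FTL probe set, which was never called, was not. With the passage as a replicate block, PICA passed at the same log2 fold change of 1.70, the probe sets called higher were 2 instead of 1, and the iron genes called higher were 4 instead of 2. The block changed no call of TFRC, FTH1, FTL or HMOX1. After Benjamini-Hochberg adjustment, the methods' t-test had 0 of all 23999 probe sets as higher and 0 as lower, and thus 0 of the 7 and 0 iron genes. TF (1.43) then had an adjusted p of 0.307. Unadjusted, that test called 2 of the 7 higher and 1 lower, including PICA at 1.70 and FTL at -0.09, and 6 iron genes higher and 2 lower, where it called 1468 of all probe sets higher and 1423 lower. With an intensity trend, 1 iron gene was higher. When single arrays or passages were left out, the log2 fold change was 1.18 to 1.71 for TF and 1.15 to 2.05 for PICA, 0 to 2 probe sets were called higher, and 0 to 3 iron genes were called higher. Quantile normalization, robust estimation and the filter at a mean above 4 changed no call of the 7 probe sets. The filter at a mean above 6 kept TF, FTH1 and the brighter FTL probe set only. Limits are the 3 arrays per group, dim signals of PICA and TFRC without detection calls, and FTL near the top of the scale.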

Other observations

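The probe sets that name a member together with another gene were assigned to neither. The 2 that name both PICA's gene ID and LOC100515857 had log2 values of 6.43, 6.48 and 6.95 in ALI and 6.13, 5.58 and 6.14 in SMC cells for the first, and of 5.72, 5.38 and 5.88 in ALI and 5.29, 5.10 and 5.34 in SMC cells for the second. In both, all ALI values lay above all SMC values, as they did in 10.3% of all probe sets. The log2 fold changes were 0.67 (adjusted p = 0.155 from limma, 0.0302 with the passage as a block) and 0.42 (adjusted p = 0.242, 0.0702 with the block). The 5 that name both FTH1 and HDHD2 had log2 fold changes of -0.04 to 0.14, with overlapping groups.

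HBB, the beta chain of hemoglobin and thus a heme protein, had log2 values of 10.47, 10.13 and 10.86 in ALI and 9.78, 10.10 and 10.28 in SMC cells, at or above those of 89.8 to 95.6% of the probe sets on the same array. Its log2 fold change was 0.44 (adjusted p = 0.373, 0.139 with the block). The erythroid transcription factor KLF1, the other measured gene of that list, had 0.30 (adjusted p = 0.299).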
